A study of Mus musculus with 138 samples.

Results

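Mouse 2-cell embryos in which SMARCA5 was targeted with the TrimAway system were compared with embryos that had not been injected, within the first pool of embryos (replicate 1). Libraries titled as a-Smarca5 TrimAway and as No injection control of that replicate were taken, and those with at least 100000 total counts were kept. This gave 17 anti-SMARCA5 libraries of 18 and 10 uninjected libraries of 11, out of 138 samples in the series. The embryos were wild type, SMARCA5 was targeted at the zygote stage, and libraries were made at least a day after injection. A replicate number stands for a different pool of injected embryos, and the design text calls the replicates technical. The p-values below therefore measure the spread between single embryos of 1 pool. Embryos of the same replicate labelled IgG (10 libraries kept of 11) and the anti-SMARCA5 and uninjected embryos of replicate 3 (7 and 5 libraries kept) are given beside this comparison where they bear on it.

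SMARCA5, also called SNF2H, is the motor subunit of ISWI chromatin remodelling complexes, which slide nucleosomes into regular arrays and open binding sites for transcription factors. In the mouse, the 2-cell stage is when most of the embryo's own transcription starts, known as major zygotic genome activation, while transcripts stored in the egg are broken down. TrimAway removes a protein rather than its RNA. An antibody binds the target, and the ubiquitin ligase TRIM21, which recognises the antibody, sends the complex to the proteasome.

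Each embryo gave 1 library of polyadenylated RNA, made by the RNA part of scNMT-seq. Total counts ran from 989287 to 2321338 in the anti-SMARCA5 libraries (median 1464045) and from 365597 to 2351642 in the uninjected ones (median 1838494). The egg and embryo genes Gdf9, Bmp15, Zp3, Nlrp5 and Dppa3 were present in every library of both groups, with medians of 230 and 183 CPM for Gdf9 and of 767 and 1260 CPM for Dppa3 in anti-SMARCA5 and uninjected libraries. The set of egg and embryo markers chosen for this check also held Ooep, whose level is not given here. CPM here stands for counts scaled to a common library size after TMM normalisation. Of the markers of cumulus cells (16 genes), sperm (10 genes) and blood (4 genes), 1, 1 and 0 passed the filter on low counts and 0 were called. Since each library is a whole embryo, a change in 1 of its cells cannot be told apart from a change in both. The summed sperm markers lay at 11.7 to 85.3 CPM in anti-SMARCA5 and 7.30 to 47.0 CPM in uninjected libraries, the summed cumulus markers at 3.48 to 189 and 5.84 to 19.95 CPM, and the blood markers at 4.33 to 65.3 and 1.63 to 14.2 CPM. Of the sperm markers, 5 of 10 in the anti-SMARCA5 group and 9 of 10 in the uninjected group stayed at or under 3 counts in every library. The part of these cells in the results was not tested.

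Trim21 RNA separated the anti-SMARCA5 libraries from the uninjected ones without overlap. In the 17 anti-SMARCA5 libraries it lay at 294 CPM (lowest), 1350 CPM (median) and 7492 CPM (highest). In the uninjected libraries it was at 0 counts in 8 of 10 and at no more than 3 counts in the others. Pooled over libraries, the anti-SMARCA5 group held 60825 counts of Trim21 and the uninjected group 4, a ratio of 12346 after scaling (exact 95% interval 4822 to 45315, counting error only). Trim21 was at 0 counts in all 10 IgG libraries of replicate 1, and the labels do not say what these embryos received besides IgG.

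Smarca5 RNA, which TrimAway does not target, spread widely among the injected embryos. It lay at 47.6, 389 and 1040 CPM (lowest, median, highest) in anti-SMARCA5 libraries and at 399, 493.1 and 832 CPM in uninjected libraries. The groups overlapped, with 10 of the 17 anti-SMARCA5 libraries below the lowest uninjected library and 2 above the highest. The log2 fold change was -0.11 ± 0.28 (SE; adjusted p = 0.801, edgeR), and its sign turned in the fits restricted to plate column 8 (0.51) and without the 3 libraries of highest mitochondrial share (0.034). Of the kept anti-SMARCA5 libraries, plate column 8 held only A08 and B08. Smarca1, the homologue of Smarca5, did not pass the filter on low counts. Of the 12 tested genes of ISWI complexes, 0 were called in either direction with a median log2 fold change of -0.03 (1 had an unadjusted p under 0.05, DESeq2 called 0, and with total counts in place of TMM 1 was called lower). Baz1b, the WSTF partner of SMARCA5, had the smallest p among them, at -0.75 ± 0.29 (adjusted p = 0.0678, edgeR).

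**Figure D1:**
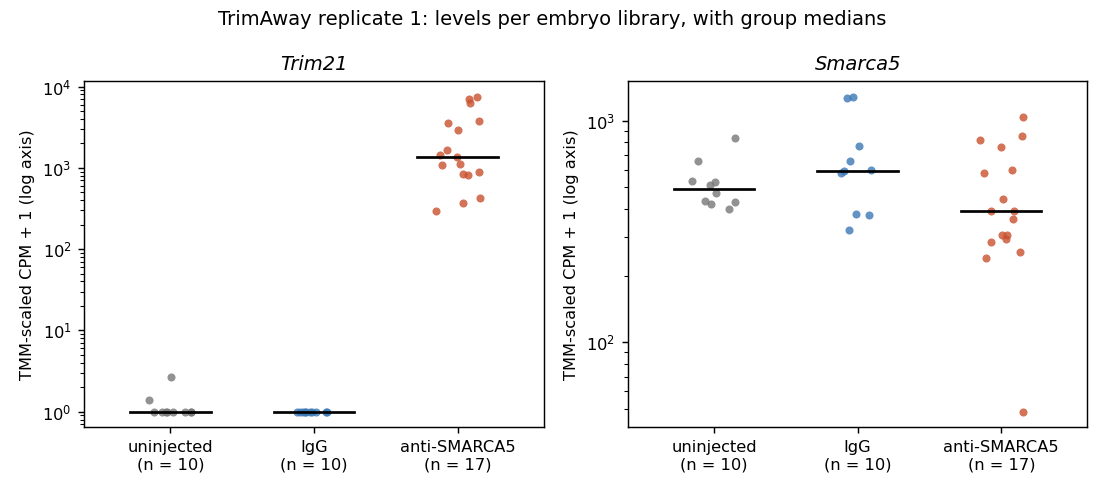
Levels of Trim21 and Smarca5 RNA in replicate 1, 1 point per embryo library, on log axes of TMM-scaled CPM + 1, with bars at the group medians (uninjected n = 10, IgG n = 10, anti-SMARCA5 n = 17). Trim21 separates the anti-SMARCA5 libraries (294 to 7492 CPM) from both controls, whereas Smarca5 overlaps between groups and has 1 anti-SMARCA5 library at 47.6 CPM.

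Within the 17 anti-SMARCA5 embryos the relative level of Trim21 RNA varied together with other measures of the library. Expressed on a log2 scale relative to the counts of genes not encoded by mitochondria, Trim21 rose with the share of counts on mitochondrially encoded genes (Pearson's r = 0.653, permutation p = 0.0044, adjusted p = 0.0176 over 4 relations; Spearman's rho = 0.574, permutation p = 0.0184, adjusted p = 0.0368). Without the 2 libraries farthest from the median of Trim21, r was 0.553, and within plate columns 6 (n = 7) and 7 (n = 8) it was 0.787 and 0.631. Counts of genes not encoded by mitochondria enter the denominators of both measures. Such a relation can therefore arise without a difference in the amount of Trim21 RNA, and the permutation test does not allow for this. The relation of Trim21 to Smarca5 RNA was negative, with r = -0.509 (permutation p = 0.0311, adjusted p = 0.0622) and rho = -0.630 (permutation p = 0.00805, adjusted p = 0.0322). Its r was -0.537 without the 2 farthest libraries and -0.492 and -0.691 within the columns. Neither total counts nor the number of detected genes passed the test against Trim21 (permutation p = 0.523 and 0.424).

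Across the transcriptome, 1656 of 10632 tested genes (15.6%) passed an adjusted p under 0.05 in edgeR's quasi-likelihood test, 1178 higher (11.1%) and 478 lower (4.5%) in anti-SMARCA5 embryos. Of these, 986 were higher and 307 lower by at least 2-fold. The median log2 fold change of all tested genes was 0.14. The split depended on the scaling. With total counts in place of TMM factors, 1051 genes were called, 380 higher and 671 lower, 814 of them among the 1656. The median of all genes was then -0.22, so that changes below are relative to the bulk of genes. Leaving out 1 uninjected library took the number of calls to 982 (without F08), 1021 (without E08) or 1040 (without G08).

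**Figure D2:**
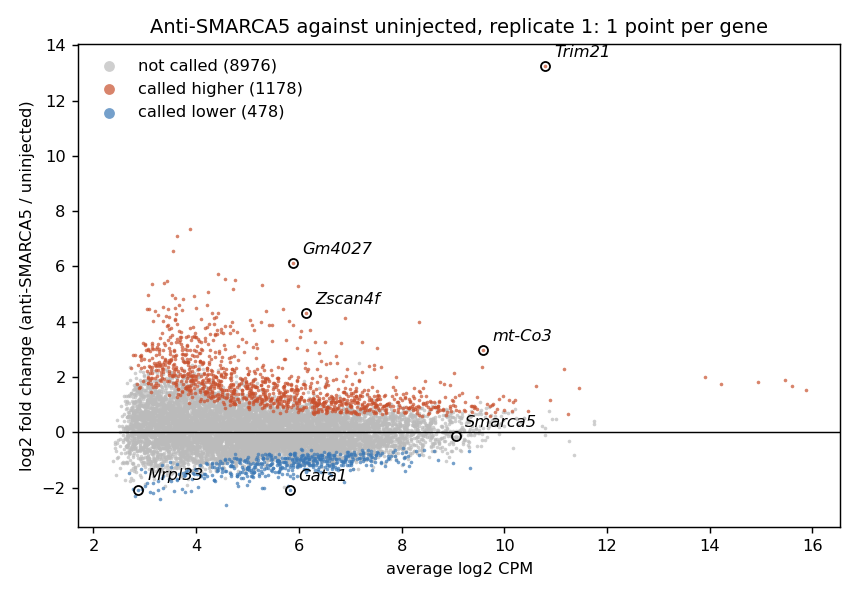
Log2 fold change of each of the 10632 tested genes (anti-SMARCA5 over uninjected, replicate 1) against its average log2 CPM. Red points are the 1178 genes called higher and blue points the 478 called lower, and Trim21 stands alone at 13.25 on the log2 scale, a fitted value that rests on a control group at or under 3 counts per library.

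The largest shift shared by a whole group of genes was in transcripts encoded by the mitochondrial genome, which code for subunits of the respiratory chain. They took 10.99%, 24.4% and 46.9% of counts (lowest, median, highest) in anti-SMARCA5 libraries and 5.74%, 10.2% and 17.9% in uninjected libraries, with means of 23.8% ± 10.6 and 10.5% ± 3.66 (SD, n = 17 and 10). All 17 anti-SMARCA5 libraries lay above the uninjected median and 11 above the highest uninjected library (permutation p = 0.00012, adjusted p = 0.00032 over 4 library measures, two-sided). All 13 protein-coding mitochondrial genes were called higher, with a median log2 fold change of 1.82. For mt-Co3, a subunit of cytochrome c oxidase, the levels were 117, 516 and 4954 CPM against 43.8, 114 and 317 CPM, a log2 fold change of 2.99 ± 0.57 (adjusted p = 0.0016). The IgG libraries of replicate 1 lay between, at 7.04%, 15.1% and 33.8%.

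This share moved with most of the gene groups below. When it was added to the model as a covariate, an alternative chosen after seeing the data, 55 genes were called in place of 1656 (53 higher, 2 lower), 51 of them among the 1656. Only 3 of the 79 called genes named here kept their call in that fit, namely Trim21, Zscan4c and Gm12794. Without the 3 anti-SMARCA5 libraries of highest share (wells H06, A07 and E06, at 46.9%, 43.5% and 34.1%), 1574 genes were called, 982 higher and 592 lower. Of these, 1206 were among the 1656 (72.8% of the 1656). The part of the mitochondrial share in the differences was not tested beyond these fits. Detected genes after thinning every library to 100000 counts numbered 9410 ± 603 and 9426 ± 173 (SD) in the groups (permutation p = 0.946). This depended on the setting, since counting only genes with at least 4 counts at the same depth gave a difference of -691 (permutation p = 0.00456), and without thinning the difference was 646 (permutation p = 0.0243).

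Genes that mark the 2-cell stage were among the largest rises. Of 38 tested members of a list of such genes (42 were in the table), 24 were called higher and 0 lower, 63.2% against 11.1% of all tested genes called higher, and the median log2 fold change was 1.77. A gene can pass the filter on low counts through the group in which it is high. The counts of list members here and below therefore describe the tested genes only. Zscan4f, a zinc-finger gene expressed at the 2-cell stage and briefly in embryonic stem cells, lay at 0, 45.3 and 396 CPM in anti-SMARCA5 libraries and at 1.08, 4.98 and 11.6 CPM in uninjected libraries. It rose by 4.33 ± 0.77 on the log2 scale (adjusted p = 0.001), and 14 of 17 libraries exceeded the highest uninjected one. Its neighbour Zscan4c rose by 3.86 ± 0.75, with 0, 20.3 and 128 CPM against 0, 1.28 and 8.27 CPM.

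Several multi-copy genes of the same stage rose further. Gm4027 rose by 6.12 ± 1.03 on the log2 scale (0, 20.3 and 287 CPM against 0, 0.209 and 4.73 CPM). Gm4340 rose by 5.29 ± 0.99, and Zfp353, a zinc-finger gene, by 5.34 ± 0.96. Dub1, a deubiquitinating enzyme gene, rose by 4.47 ± 0.91, Gm8300 by 4.15 ± 0.90, Gm12794 by 4.03 ± 0.82 and Gm2016 by 3.997 ± 0.79, the last with 0, 210 and 1681 CPM against 2.77, 28.7 and 64.7 CPM. CT485612.1 rose by 4.38 ± 0.96 and Gm5698 by 4.05 ± 1.10, the latter losing its call without anti-SMARCA5 library H06 (adjusted p = 0.0744). Many uninjected libraries held no more than 3 counts of these genes, namely 7 of 10 for Gm4027, Gm4340, Zfp353 and Dub1, 6 for Zscan4c and Gm5698, and 5 for Gm12794 and CT485612.1, so the size of these folds is poorly fixed. Zscan4 and the Gm genes have near-identical copies, and how reads that match several copies were counted is not given in the sources used here, so values of single members are uncertain. Dsp, which encodes the desmosome protein desmoplakin, rose by 3.99 ± 0.65 and overlaps Gm10129 on the other strand.

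The rise was not uniform across embryos. The mean log2(CPM + 1) of the 38 genes lay at 2.33, 5.80 and 7.29 in anti-SMARCA5 libraries and at 3.35, 3.96 and 4.89 in uninjected libraries. In 11 of 17 anti-SMARCA5 libraries it was above the highest uninjected library, while wells A07 (2.33) and E06 (3.10) were below the lowest. With the mitochondrial share as a covariate the median of the list was 1.36 with 3 members called, and without the 3 libraries of highest share it was 1.74 with 27 of 37 called higher. With total counts in place of TMM it was 1.39, with 17 called higher and 1 lower.

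The same list was also high in some IgG embryos. Against the same uninjected libraries, the median log2 fold change of the 32 members tested was 1.79 in IgG embryos, with 0 called, and the mean level was 3.86, 4.89 and 7.76. Zscan4f was at 0.92, 9.83 and 788 CPM there and at 4.97 ± 1.15 on the log2 scale (adjusted p = 0.12). The 2 highest IgG libraries, at 7.07 and 7.76, were also those of highest mitochondrial share among the 10 (27.6% and 33.8%). In the direct comparison of anti-SMARCA5 with IgG, the 39 members tested had a median of 0.13 and 0 were called.

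**Figure D3:**
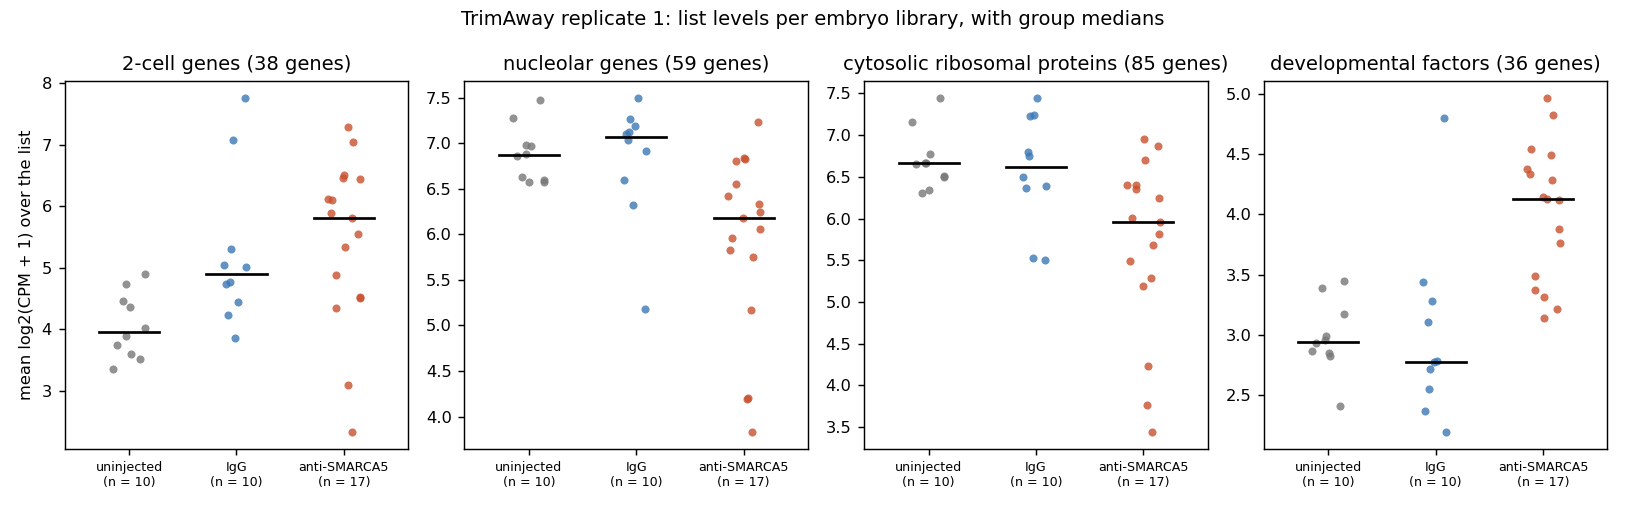
Mean log2(CPM + 1) over the tested members of 4 gene lists in each embryo library of replicate 1, with bars at the group medians. Genes of the 2-cell stage have a median of 5.80 in anti-SMARCA5, 3.96 in uninjected and 4.89 in IgG libraries. The 2 highest IgG libraries lie at 7.07 and 7.76. Nucleolar and cytosolic ribosomal protein genes are lower in most anti-SMARCA5 libraries. Developmental factors have a median of 4.13 in anti-SMARCA5, 2.94 in uninjected and 2.78 in IgG libraries.

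Among genes for making ribosomes the calls were falls. Of 59 tested nucleolar genes, which serve the transcription and processing of ribosomal RNA, 10 were called lower and 0 higher (16.9% against 4.5% of all tested genes called lower), with a median log2 fold change of -0.65, and 54 of the 59 had a negative value. Ddx52, a helicase of small-subunit processing, lay at 15.4, 85.6 and 162 CPM in anti-SMARCA5 libraries and at 135, 176 and 226 CPM in uninjected libraries, and 16 of 17 libraries were below the lowest uninjected one. It fell by 1.09 ± 0.25 on the log2 scale (adjusted p = 0.0062). Tcof1 (treacle, a cofactor of ribosomal RNA transcription) fell by 0.99 ± 0.27, Utp6 (small-subunit processome) by 1.04 ± 0.29, and Polr1e (a subunit of RNA polymerase I, overlapping Fbxo10 on the other strand) by 1.16 ± 0.32.

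Calls among cytosolic ribosomal protein genes were also falls. Of 85 tested, 15 were called lower and 0 higher (17.6% against 4.5% of all tested genes called lower), 82 had a negative log2 fold change, and their median was -0.72. Rpl36a lay at 2.56, 21.9 and 56.6 CPM against 22.7, 59.5 and 95.2 CPM, and fell by 1.30 ± 0.34 (adjusted p = 0.012). Rpl24 fell by 0.91 ± 0.25, Rpl37a by 1.17 ± 0.34 and Rps3 by 0.99 ± 0.30. The last 2 calls were lost without uninjected library F08 (adjusted p = 0.0608 and 0.0588), and that of Rps3 also without E08. Ribosomal protein genes have many processed pseudogenes, which could have taken part of their reads.

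Falls were also called in other housekeeping lists. Of 67 tested mitochondrial ribosomal protein genes, which are encoded in the nucleus, 10 were called lower and 0 higher (14.9% against 4.5% of all tested genes called lower, median -0.53), among them Mrpl33 (fell by 2.06 ± 0.54, with overlapping genes on both strands) and Mrpl3 (fell by 1.70 ± 0.45, from a median of 30.9 to 6.20 CPM). Of 34 proteasome subunit genes, 8 were called lower and 0 higher (23.5% against the same 4.5%, median -0.64). In the proteasome's core, Psma2 fell by 1.05 ± 0.28 and Psma6 by 1.09 ± 0.34, and in its regulatory particle Psmd11 fell by 0.88 ± 0.24 and Psmc5 by 1.42 ± 0.45. Psma2 lay at 13.4, 92.3 and 198 CPM against 143, 197 and 276 CPM, and 14 of 17 libraries were below the lowest uninjected one. The calls of Psma6 and Psmc5 were lost without uninjected library F08, G08 or E08, and that of Psma6 also without B09 (highest adjusted p = 0.061 and 0.0876).

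Translation initiation, splicing and transcription factors were more mixed. In a list of 57 genes taken by the name of initiation factors, which also holds Argonaute and kinase genes, 6 were lower and 1 higher (10.5% and 1.75%, against 4.5% and 11.1% of all tested genes, median -0.41). Eif4b, a cofactor of the initiation helicase, fell by 1.18 ± 0.26 and Eif3f by 1.31 ± 0.36, whereas the helicase gene Eif4a2 rose by 1.01 ± 0.27. Of 54 splicing genes, 7 were lower and 1 higher (12.96% and 1.85%, median -0.27). Snrpf, of the Sm core of spliceosomal particles, fell by 1.42 ± 0.37 and the LSM-domain gene Lsm12 by 1.18 ± 0.32, while the splicing factor gene Srsf7 rose by 0.99 ± 0.32 and lost its call in 9 of 27 fits that left out 1 library (highest adjusted p = 0.071). Among 50 genes of RNA polymerase II and its general factors, 5 were lower and 1 higher (10% and 2%, median -0.18). In all 3 lists the share called higher was thus below that of all tested genes. The polymerase subunit genes Polr2d and Polr2c fell by 1.24 ± 0.29 and 0.68 ± 0.21, and Gtf2b, which encodes TFIIB, rose by 1.45 ± 0.28, from a median of 49.9 to 116 CPM.

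The lowest levels of the nucleolar list were in the anti-SMARCA5 embryos with the highest mitochondrial share. The mean level of the nucleolar list was 3.83, 6.18 and 7.23 in anti-SMARCA5 libraries and 6.57, 6.87 and 7.47 in uninjected libraries, and the 3 lowest anti-SMARCA5 libraries were A07 (3.83), E06 (4.19) and H06 (4.20). Without those 3 libraries the medians were -0.45 for nucleolar genes, -0.51 for cytosolic and -0.33 for mitochondrial ribosomal proteins, and -0.47 for the proteasome, with 12, 14, 11 and 8 members called lower. With the mitochondrial share as a covariate the medians were 0.12, 0.08, 0.00 and 0.09 and 0 members of the 4 lists were called. With total counts in place of TMM the medians were -0.86, -0.92, -0.73 and -0.85. In IgG embryos against the same controls the medians were 0.06, 0.00, -0.14 and -0.22, with 0 called. The IgG libraries of highest mitochondrial share, A10 (33.8%) and H09 (27.6%), had the lowest levels of the 4 lists in their group. Their nucleolar levels were 5.18 and 6.32, below the lowest uninjected library, while the IgG median was 7.06. Cytosolic ribosomal protein genes lay at 5.51 and 5.53 there (lowest uninjected 6.31), and proteasome genes at 4.93 and 5.48 (lowest uninjected 6.26).

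**Figure D4:**
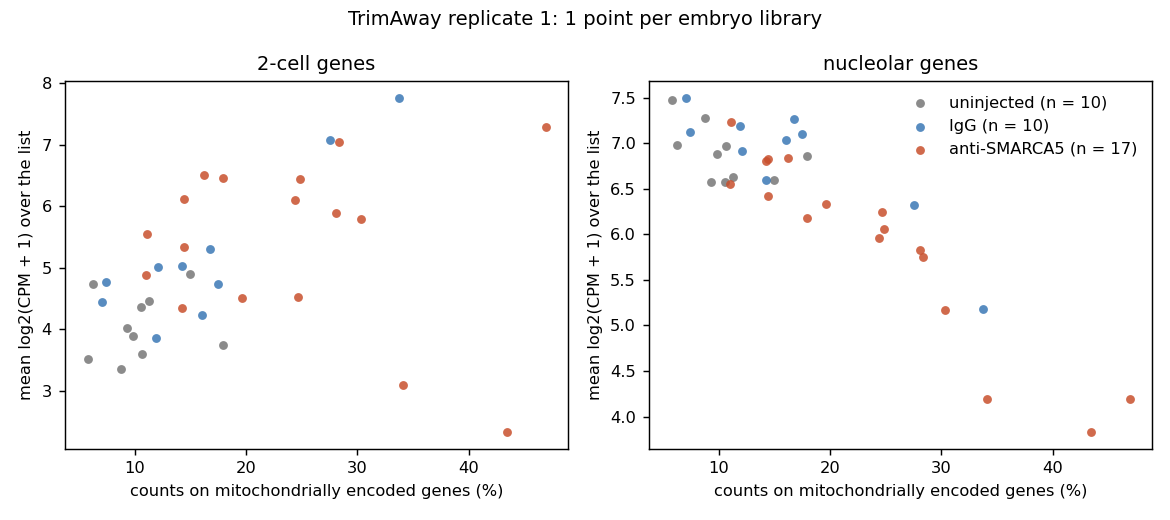
Mean log2(CPM + 1) of the 2-cell list (left) and of the nucleolar list (right) against the percentage of counts on mitochondrially encoded genes, 1 point per embryo library of replicate 1. The 3 lowest nucleolar levels belong to the anti-SMARCA5 libraries of highest mitochondrial share (34.1% to 46.9%). The IgG libraries at 33.8% and 27.6% have the lowest nucleolar levels of their group, 5.18 and 6.32. The uninjected library of highest share (17.9%) lies at 6.86, within its group. The anti-SMARCA5 libraries at 43.5% and 34.1% have low 2-cell levels, while the one at 46.9% has the highest of its group.

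The 12 largest falls, among called genes of average log2 CPM of at least 5, belonged to no single list. Gata1, a transcription factor known from blood, fell by 2.099 ± 0.52 on the log2 scale (adjusted p = 0.0093), from 47.7, 107 and 143 CPM in uninjected libraries to 0, 16 and 97.3 CPM, and 15 of 17 anti-SMARCA5 libraries were below the lowest uninjected one. Smyd5, a SET-domain methyltransferase gene, fell by 2.02 ± 0.51, from 34.4, 60.6 and 136 CPM to 0, 8.74 and 54.4 CPM. Ccdc126 fell by 2.01 ± 0.52 and Eef1e1, a subunit of the multi-tRNA synthetase complex, by 1.94 ± 0.51. Usp10, a deubiquitinase gene, fell by 1.78 ± 0.31, with 16 of 17 libraries below the lowest uninjected one. It overlaps Gm20388 on the same strand, so reads of the pair may not be separable.

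The remaining large falls were between 1.58 and 1.76 on the log2 scale. They were in Slc29a2, a nucleoside transporter gene (1.76 ± 0.51), Ppil1, a peptidyl-prolyl isomerase of the spliceosome (1.64 ± 0.52), Yif1b, a membrane trafficking gene (1.62 ± 0.47), the zinc-finger gene Zfp330 (1.60 ± 0.49), Tbc1d9 (1.58 ± 0.41), 2210016F16Rik (1.58 ± 0.52) and 2410016O06Rik (1.58 ± 0.50). In each of the 12 genes at most 1 of the 17 anti-SMARCA5 libraries was above the uninjected median. The 12 genes were chosen by their fall in these same libraries, so this count is a description and not further support. The calls of 4 were lost when 1 library was left out, in 10 of 27 fits for 2210016F16Rik, in 4 for 2410016O06Rik (uninjected C09, F08, G08 or E08), in 3 for Ppil1 (uninjected D09, F08 or G08) and in 1 for Yif1b (uninjected F08), with adjusted p up to 0.0985. Tbc1d9 and Yif1b overlap a gene on the other strand.

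Some transcription factors of later development were called higher in anti-SMARCA5 embryos. Of 144 such genes present, 36 passed the filter on low counts, 16 were called higher and 2 lower, and 108 were not tested. The shares of those tested were 44.4% and 5.56%, against 11.1% and 4.5% of all tested genes, so the falls were near the background. A gene that is high in 1 group can pass the filter through that group, so these counts describe the tested genes only. Pax6, a factor of eye and brain development, lay at 8.70, 43.3 and 252 CPM in anti-SMARCA5 libraries and at 0.336, 9.40 and 22.1 CPM in uninjected libraries, with 13 of 17 above the highest uninjected one. It rose by 3.06 ± 0.58 (adjusted p = 0.0016), and against IgG it was also called higher, by 2.98 ± 0.64 (adjusted p = 0.038). Tbx20 (heart development) rose by 2.90 ± 0.60, Nkx6-2 (nervous system) by 1.60 ± 0.34 and Msx1 (limb and craniofacial development) by 2.21 ± 0.48. The 2 falls were in Gata1, above, and Gata4, which fell by 1.11 ± 0.26 (14.4, 42.7 and 104 CPM against 36.5, 102 and 137 CPM) and by 1.15 ± 0.29 against IgG (adjusted p = 0.044). Of the 38 members tested against IgG, Pax6 (higher) and Gata4 (lower) were the only ones called, so Tbx20, Nkx6-2 and Msx1 were not. Pax6 overlaps Elp4 and Pax6os1, and Nkx6-2 overlaps Inpp5a, on the other strand.

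Genes of later preimplantation stages included several of the outer cell layer. Of 23 tested, 6 were called higher and 1 lower (26.1% and 4.35%, against 11.1% and 4.5% of all tested genes), so the share of falls was that of the background. Id2 rose by 2.52 ± 0.51 (23.8, 102 and 554 CPM against 1.01, 23.3 and 54.8 CPM), with all 17 libraries above the uninjected median. Krt18 and Krt8, the keratins of the trophectoderm, rose by 3.82 ± 0.82 and 3.52 ± 0.81 to medians of 15.0 and 9.09 CPM. In 7 and 6 of the 10 uninjected libraries they were at no more than 3 counts, so these folds are poorly fixed. Gata3, a factor of the same layer, rose by 3.84 ± 0.91. Fgf4, the growth factor of the inner cells, fell by 1.41 ± 0.37, from a median of 55.6 to 20.5 CPM. Against IgG, Krt8 alone of the 23 members tested was called, higher by 3.45 ± 0.85 (adjusted p = 0.042), and Krt18 was not (0.91 ± 0.78, adjusted p = 0.49).

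Among stress genes, single members were called. Of 17 tested p53 targets, 5 were called higher and 1 lower (29.4% and 5.88%, against 11.1% and 4.5% of all tested genes, median 0.40, and -0.025 with total counts in place of TMM). Plk2, a kinase induced by p53, rose by 2.65 ± 0.54 (10.3, 51.5 and 241 CPM against 0, 8.13 and 31.0 CPM), the antiproliferative gene Btg2 by 2.27 ± 0.51, Trp53inp1 by 0.85 ± 0.24 and the ribonucleotide reductase gene Rrm2b by 0.86 ± 0.26, while Ei24 fell by 0.75 ± 0.23. The calls of Rrm2b and Ei24 were lost without uninjected library F08 (adjusted p up to 0.0554 and 0.0679), that of Rrm2b also without D09 and that of Ei24 also without E08. Of 27 tested heat shock and unfolded protein genes, 4 were higher and 0 lower (median 0.07, and -0.23 with total counts), and their 14.8% called higher is near the 11.1% of all tested genes. The inducible chaperone genes Hspa1b and Hspa1a, near-identical copies, rose by 2.88 ± 0.78 and 2.14 ± 0.61, and the endoplasmic reticulum stress genes Herpud1 and Ddit3 by 3.13 ± 0.90 and 1.78 ± 0.56, the last losing its call in 6 of 27 fits that left out 1 library. Hspa1b and Herpud1 were at no more than 3 counts in 6 and 7 of the 10 uninjected libraries, so their folds are poorly fixed.

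Of 31 interferon and NF-kB response genes present, 11 were tested, and 3 of these were called higher and 0 lower (27.3% against 11.1% of all tested genes called higher). Ddx58, the RNA sensor RIG-I, rose by 3.33 ± 0.82 (0.80, 10.5 and 127 CPM against 0, 3.05 and 7.47 CPM). Nfkbia, an inhibitor of NF-kB, rose by 1.15 ± 0.37 and the chemokine gene Cxcl10 by 1.39 ± 0.47, and these calls were lost in 8 and 15 of 27 fits that left out 1 library (highest adjusted p = 0.0678 and 0.0805). Among the 12 genes of the TrimAway route itself (TRIM21, its ubiquitin-conjugating partners and VCP cofactors), Trim21 alone was called.

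Few maternal transcripts were called. Of 44 tested, 2 were called higher and 0 lower, under the 11.1% of all tested genes called higher, with a median of 0.19, which became -0.26 with total counts in place of TMM. The 2 were Plat, which encodes tissue plasminogen activator and is stored dormant in the egg (1.44 ± 0.43), and Nlrp14, an oocyte gene (0.80 ± 0.27). Both calls depended on single libraries, being lost in 2 of 27 fits for Plat (uninjected F08 or E08) and 15 of 27 for Nlrp14. Of 22 genes for the decay of maternal RNA, 3 were higher and 1 lower (median 0.05, and -0.29 with total counts), shares of 13.6% and 4.55% that are near the 11.1% and 4.5% of all tested genes. Dcp2, the decapping enzyme gene, rose by 1.19 ± 0.29 (163, 276 and 819 CPM against 101, 165 and 232 CPM), Zcchc11, a uridylyl transferase gene, by 1.80 ± 0.47 and Zfp36l1, a binding protein of AU-rich RNA, by 3.64 ± 0.96, with 8 of the 10 uninjected libraries at no more than 3 counts. Cnot8, a deadenylase gene of the CCR4-NOT complex, fell by 0.90 ± 0.24, from a median of 360 to 196 CPM.

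**Figure D5:**
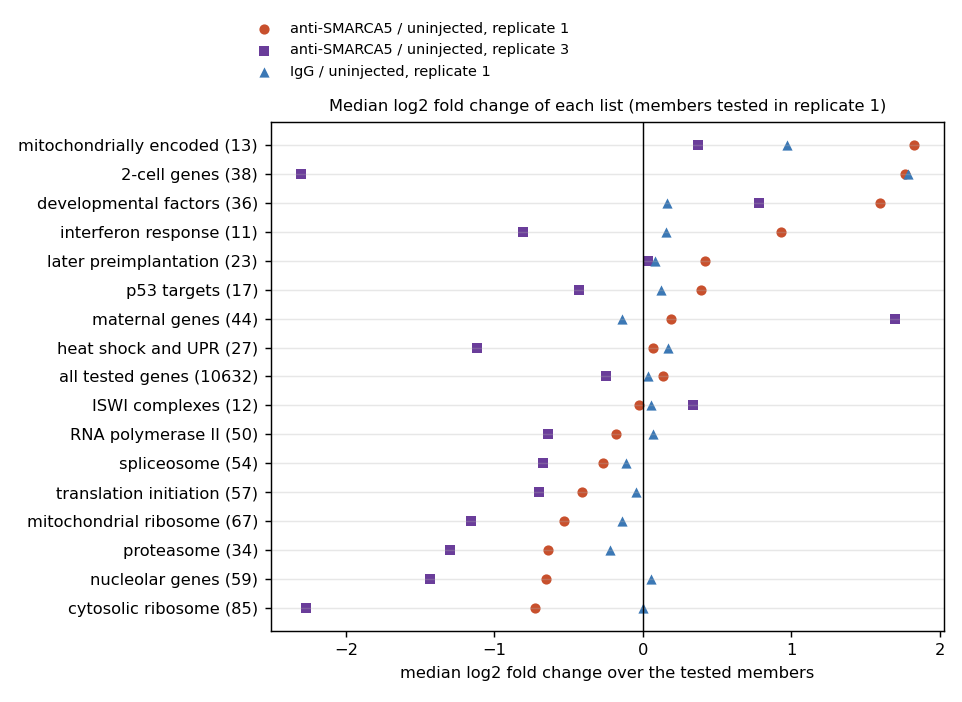
Median log2 fold change of each gene list, with the number of members tested in replicate 1 in parentheses, for anti-SMARCA5 over uninjected in replicates 1 and 3 and for IgG over uninjected in replicate 1, which shares its uninjected libraries with the first. The 2-cell list lies at 1.77 in replicate 1 and at -2.30 in replicate 3, and the nucleolar and ribosomal lists are below 0 in both replicates.

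The promoters of the genes that rose and fell were read from RefSeq (GRCm38.p6), whose windows run from 250 bases before to 50 after each annotated start and matched 7535 of the 10632 tested genes (9604 windows). Words were searched on both strands, and none of those given contains another. The 7-base word CCGGAAG, a core recognised by ETS factors, was in 29.9% of the 428 windows of genes called lower, 9.34% of the 1071 windows of genes called higher and 18.1% of all windows. The E-box CACGTG was in 16.8%, 7.56% and 10.2%, and TATAAA in 5.84%, 9.71% and 6.86%. Other words were searched in the same windows, and some of their shares differed little between the groups. In the same order, CCAAT was in 36.0%, 39.7% and 39.1%, and GGGCGG in 60.7%, 63.9% and 62.7%. GGATTA was in 3.97%, 5.98% and 5.89%. The longest word searched, not printed here, was in 3.27%, 1.12% and 2.29%. The median number of CpG was 22, 19 and 21. These shares are descriptions with no test. The 250 bases before the start are printed for 2 genes that rose, with TATAAA in capitals, and 3 that fell, with CCGGAAG or its reverse complement CTTCCGG in capitals. They were chosen for holding the word and are written 5′ to 3′ on the gene's strand.
Zscan4c, chr7:11005495-11005744, plus strand: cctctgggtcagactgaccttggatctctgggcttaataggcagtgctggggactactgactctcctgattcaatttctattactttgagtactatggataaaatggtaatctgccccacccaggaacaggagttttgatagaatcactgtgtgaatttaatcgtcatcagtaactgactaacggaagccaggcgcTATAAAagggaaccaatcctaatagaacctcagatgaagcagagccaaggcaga
Zscan4f, chr7:11397665-11397914, plus strand: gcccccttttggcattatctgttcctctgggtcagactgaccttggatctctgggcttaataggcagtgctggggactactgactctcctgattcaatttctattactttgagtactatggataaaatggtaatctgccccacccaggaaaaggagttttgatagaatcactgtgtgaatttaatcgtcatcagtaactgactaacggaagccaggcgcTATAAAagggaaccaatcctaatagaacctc
Mrpl3, chr9:105053018-105053267, plus strand: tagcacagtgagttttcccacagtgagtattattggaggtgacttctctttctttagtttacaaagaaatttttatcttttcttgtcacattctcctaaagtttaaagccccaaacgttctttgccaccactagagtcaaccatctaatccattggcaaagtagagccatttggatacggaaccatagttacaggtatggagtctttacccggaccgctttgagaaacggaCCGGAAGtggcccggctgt
Ppil1, chr17:29263972-29264221, minus strand: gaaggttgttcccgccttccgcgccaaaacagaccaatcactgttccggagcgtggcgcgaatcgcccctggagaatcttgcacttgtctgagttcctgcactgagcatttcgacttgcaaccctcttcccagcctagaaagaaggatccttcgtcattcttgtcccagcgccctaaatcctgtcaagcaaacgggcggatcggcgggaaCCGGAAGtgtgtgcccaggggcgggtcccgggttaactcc
Psmd11, chr11:80428365-80428614, plus strand: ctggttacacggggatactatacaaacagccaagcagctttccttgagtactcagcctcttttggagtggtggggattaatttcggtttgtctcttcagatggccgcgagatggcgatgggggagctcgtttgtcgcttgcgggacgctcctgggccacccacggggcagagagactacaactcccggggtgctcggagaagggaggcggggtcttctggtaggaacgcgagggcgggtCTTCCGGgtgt
The whole windows of Zscan4c and Zscan4f held 4 and 3 CpG, and their TATAAA began 54 and 31 bases before the annotated start. Those of Mrpl3, Ppil1 and Psmd11 held 12, 23 and 26 CpG, and the capital word began 19, 40 and 11 bases before the start. Zscan4c and Zscan4f have near-identical upstream sequence and are not independent examples.

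IgG embryos of the same replicate were set beside these results, with the limit that no Trim21 RNA was counted in them. They share the uninjected libraries with the comparison above, so their values are given side by side only. Of 9558 genes tested in IgG against uninjected embryos, 1 was called (0.0105%), AC165327.2 at 1.89 ± 0.33 (adjusted p = 0.0286, edgeR), named because it was the single call. At an unadjusted p under 0.05 there were 939 genes, and DESeq2 called 106. Of 10507 genes tested in anti-SMARCA5 against IgG embryos, 90 were called (0.857%), 54 higher and 36 lower, with 2396 at an unadjusted p under 0.05 and 877 called by DESeq2. Genes called higher against uninjected embryos had a median log2 fold change of 0.50 in IgG against uninjected (836 tested) and of 0.87 in anti-SMARCA5 against IgG (1170 tested). For genes called lower the medians were -0.19 (478 tested) and -0.91 (470 tested). Developmental factors had medians of 0.16 and 1.05 in these 2 comparisons.

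Replicate 3 was a different pool of embryos with its own uninjected controls and no library in common. Its effect was read from the joint edgeR fit of anti-SMARCA5 and uninjected libraries of replicates 1 and 3. The filter, the scaling and the estimate of spread were therefore shared with replicate 1, and the replicate 3 calls are not a separate fit. In replicate 3, 3818 of 12981 tested genes (29.4%) were called, 1637 higher (12.6%) and 2181 lower (16.8%). Of the 478 genes called lower in replicate 1, 431 were negative in replicate 3, and 253 were called lower and 10 higher there, with medians of -1.10 and -1.57. Of the 1178 called higher in replicate 1, 770 were positive, and 290 were called higher and 70 lower, with medians of 1.60 and 0.61. For comparison, of all 10632 genes tested in replicate 1, 5903 were negative and 4729 positive in replicate 3. In the test of the difference between the replicates, 1441 of 12981 genes were called (11.1%), 941 with a higher value in replicate 1 (7.25%) and 500 with a lower one (3.85%). Among these were 228 of the 1178 and 41 of the 478. Without the 3 anti-SMARCA5 libraries of highest mitochondrial share, 2787 genes differed between the replicates.

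The median of the 2-cell list had opposite signs in the 2 pools. In replicate 3, 23 of 40 tested members were called lower and 4 higher, with a median of -2.30. Of all genes tested there, 16.8% were called lower and 12.6% higher. Between replicates, 33 members differed with a higher value in replicate 1, as did 7.25% of all genes. None of the 24 members called higher in replicate 1 had a positive value in replicate 3. Gm4340 fell by 4.48 ± 1.28 in replicate 3 (adjusted p = 0.0081), where it lay at 0, 0.779 and 19.7 CPM in anti-SMARCA5 and at 0, 39.4 and 187 CPM in uninjected libraries. Uninjected embryos of replicate 3 had a median 2-cell level of 5.14, against 3.96 for those of replicate 1, on the mean log2(CPM + 1) scale, and the anti-SMARCA5 medians were 3.32 and 5.80. The uninjected libraries of replicate 3 also had a higher mitochondrial share, at 8.21%, 21.6% and 30.2%, whose part in the difference was not tested.

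Falls among ribosomal protein and nucleolar genes were called in both pools, for 15 of 85 and 10 of 59 in replicate 1. The share of all tested genes called lower was 4.5% in replicate 1 and 16.8% in replicate 3. In replicate 3, 71 of 85 cytosolic ribosomal protein genes were called lower and 1 higher (median -2.27), and 36 of 59 nucleolar genes lower and 0 higher (median -1.43). Polr1e fell there by 2.87 ± 0.58 and Rps3 by 3.19 ± 0.63, and of these the difference between replicates was called for Rps3 alone. Maternal genes were called higher for 24 of 48 members and lower for 1 in replicate 3 (median 1.70), where 12.6% of all tested genes were called higher. Of these members, 17 differed with a lower value in replicate 1, as did 3.85% of all genes. Gata3 rose by 5.25 ± 1.30 in replicate 3 as well, from 0, 1.16 and 4.28 CPM to 25.3, 54.8 and 109 CPM. Gata1 fell by 4.81 ± 1.04 there, and Trim21 lay at 303, 1560 and 3650 CPM in its anti-SMARCA5 libraries and at 0 in its uninjected libraries. The medians of the heat shock, p53 and interferon lists were negative in replicate 3, at -1.12, -0.43 and -0.80. Called lower were 13 of 28, 5 of 21 and 1 of 15 members, and called higher 0, 1 and 0. Of their members called in replicate 1, 0 of 4, 4 of 6 and 2 of 3 had the same sign in replicate 3.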

How the data were processed

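Single-embryo RNA libraries were read from a deposited table of counts per gene, which the authors made by aligning reads to GRCm38. The submitters' processing notes name HISAT2 2.1.0, Trim Galore 0.6.5 and cutadapt 2.3. The counting tool, annotation, use of strand and treatment of reads that match several places are not given in the sources used here. Odd values outnumber even ones among low counts (31325 ones and 20354 threes against 7797 twos and 6115 fours), so 1 count need not be 1 molecule and intervals cover counting error only. Lines sharing an identifier (57 identifiers) were summed to 25900 genes, and libraries under 100000 counts were left out.

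Genes passing filterByExpr were tested with edgeR 4.0.16 (TMM, robust quasi-likelihood F test, Benjamini-Hochberg adjusted p under 0.05, R 4.3.3). Levels are TMM-scaled CPM, and list levels are means of log2(CPM + 1). Library measures were compared by two-sided permutation tests with 100000 resamples. The test was tested on simulated data. Replicates were checked for repeated libraries, and none were found. Most anti-SMARCA5 libraries sat in plate columns 6 and 7 and uninjected ones in 8 and 9, so column and group can hardly be told apart.

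Named genes were Trim21, Smarca5 and Smarca1, the 12 largest rises and falls among called genes of average log2 CPM of at least 5 whose higher median was at least 10 CPM, and up to 4 called members of each list in each direction. The members and lists were chosen with earlier results of these data known. Replication-dependent histone genes were also listed, and 1 of 68 was tested and not called. Alternatives were DESeq2 1.42.0, other scalings, filters and depth minimums, covariates, plate column 8 alone and each library left out.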

Additional observations from a re-analysis of the deposited data

Results flagged for a closer look

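In 9 of 69 values tested, 1 uninjected library lay far from the other 9 of its group, where chance flags about 1 in 20 groups. Library D09 had the lowest total (365597 counts), the lowest Tbc1d9 (9.13 CPM) and Gata4 (36.5 CPM) and the highest Eif4a2 (228 CPM). Library F09 had the lowest Mrpl3 (11.8 CPM), B09 the lowest Plk2 (0 CPM) and the highest Zcchc11 (47.6 CPM), E08 the lowest Nfkbia (3.08 CPM), and C09 the highest Nlrp14 (627 CPM).

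Of 81 named genes, 18 differed in their effect between replicates 1 and 3 by the interaction test in edgeR. Of all 12981 genes in that test, 1441 did (11.1%). Most named genes were chosen by their change in replicate 1, whose libraries the interaction test uses again. A surplus over the share of all genes is therefore partly built in. The differences below are replicate 1 minus replicate 3 on the log2 scale. Among genes that rose in replicate 1 they were 9.66 for Gm4340, 7.65 for Gm8300, 7.63 for Gm4027, 7.42 for Gm5698, 7.22 for Dub1, 7.17 for Gm2016, 6.57 for Zscan4c, 6.34 for Zfp353, 6.13 for CT485612.1, 5.85 for Gm12794 and 5.54 for Zscan4f. They were 5.12 for the chaperone gene Hspa1b, 4.78 for Tbx20, 4.55 for Ddit3 and 4.05 for Btg2. Among genes that fell in replicate 1 the difference was 2.14 for Rps3, -2.74 for Mrpl3 and -1.44 for Eif4b.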

How the results depend on the processing

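The count of 1656 called genes became 1051 with total counts, 4859 without a filter, 2570 with DESeq2 and 55 with the mitochondrial share as a covariate, and ran from 982 to 2097 when 1 library was left out. With total counts the list medians were -0.26 (maternal), -0.29 (maternal RNA decay), -0.40 (ISWI) and -0.025 (p53 targets). Plate column 8 held only anti-SMARCA5 libraries A08 and B08 and uninjected libraries E08, F08, G08 and H08. In that column alone the list medians were -0.29 (ISWI), -0.091 (p53 targets) and 2.21 (developmental factors), and Smarca5 was 0.51. Developmental factors had 2.75 without a filter and 2.64 in 1 fit of all groups. With the covariate the medians were -0.21 (maternal), 0.57 (developmental factors), 0.26 (TrimAway route) and 0.31 (mitochondrially encoded), 2410016O06Rik was 0.30 and Nlrp14 -0.025. Without the 3 libraries of highest mitochondrial share Smarca5 was 0.034. The difference of the effect of anti-SMARCA5 between replicates 1 and 3 was called for 2787 genes in that fit, against 2382 with DESeq2 and 966 to 2434 with 1 replicate 3 library left out (966 without G05, 977 without H04, 2434 without D05). IgG against uninjected gave 0 calls with total counts and with a minimum of 500000 counts, 3 without a filter and 106 with DESeq2. Anti-SMARCA5 against IgG gave 12 with total counts, 555 without a filter, 877 with DESeq2, 59 with all libraries and 5 with the minimum of 500000 counts. The difference in detected genes was 646 without thinning, 349 at 300000 counts and -691 for genes of at least 4 counts (permutation p = 0.00456). The causes were not tested. Of 79 called named genes, 62 were called in every fit that left out 1 library. The mitochondrial covariate and the fits without the 3 libraries were chosen after seeing the data. No paired analysis was possible because all 27 libraries carry the same replicate number.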
